A study of Mus musculus with 3 samples.

Results

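Of the 26124 genes counted in 3 mouse single-cell libraries, 10 genes of blood clotting, complement and the acute phase are described here: F5, F10, F7, F13a1, C3, C4b, Cfb, Cfp, Saa3 and Pf4. They were picked by symbol after their levels in macrophages had been seen, so their levels are a description and no test is made of them. All hosts carried the Tsc22d3 knockout of the goGermline strain, whose males make no sperm of their own. The chimera cauda library came from a knockout complemented as a blastocyst with mouse induced pluripotent stem cells (line Pax7-nGFP iPS x goGermline) and is labelled spermatids, spermatozoa. The KO cauda library, labelled epididymal cells, came from a knockout without donor cells, and both were obtained by needle aspiration of the cauda epididymis, where sperm are stored. The KO testis library is from the testis of an adult knockout. Each group is 1 library, so no value has a spread between animals, and the chimera cauda holds cells of host and of donor origin that were not told apart here. The series asks whether pluripotent cells can supply sperm to a sterile host. The somatic cells that came along are used here.

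Clotting factors and complement proteins circulate in blood and are made mostly by the liver, but macrophages also make some of them where they reside. In the clotting cascade, factor VII with tissue factor activates factor X, factor X with its cofactor factor V cleaves prothrombin, and factor XIII crosslinks the fibrin that thrombin forms. In complement, C3 is the shared component, C4 belongs to the classical and lectin pathways, and factor B and properdin drive the alternative pathway. Serum amyloid A proteins are released in the acute phase of inflammation, and platelet factor 4 is a chemokine best known from platelet granules.

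The genes lie on 6 autosomes and the X chromosome of GRCm38. F7 (ENSMUSG00000031443, chromosome 8, 13026034 to 13035809) and F10 (ENSMUSG00000031444, chromosome 8, 13037308 to 13056676) are neighbours on the plus strand, 1498 bases apart. Cfb (ENSMUSG00000090231, chromosome 17, 34856374 to 34862518) and C4b (ENSMUSG00000073418, chromosome 17, 34728380 to 34743882) lie 112491 bases apart, and C3 (ENSMUSG00000024164, chromosome 17, 57203970 to 57228136) is on the same chromosome. F5 (ENSMUSG00000026579) is at 164151838 to 164220277 on chromosome 1, and F13a1 (ENSMUSG00000039109) at 36867178 to 37050244 on chromosome 13. Saa3 (ENSMUSG00000040026) is at 46711998 to 46715700 on chromosome 7, Pf4 (ENSMUSG00000029373) at 90772435 to 90773383 on chromosome 5, and Cfp (ENSMUSG00000001128) at 20925454 to 20931555 on the X chromosome.

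Promoter sequences from RefSeq (GRCm38.p6) were at hand for 8 of the 10 genes. The 250 bases before the start site are shown for F5 and F10, which were high in cauda macrophages, for F13a1, which was high in testis macrophages, for Saa3, high in cauda macrophages, and for Pf4, high in both. They are F5 at chr1:164151585-164151834 and F10 at chr8:13037058-13037307 on the plus strand, F13a1 at chr13:37050245-37050494 and Saa3 at chr7:46715677-46715926 on the minus strand, and Pf4 at chr5:90772185-90772434 on the plus strand. Capitals mark a match, on either strand, to a motif of 4 factor families that act in macrophages: GATA (the form AGATAA, the form TGATAA, the form AGATAG or the form TGATAG), C/EBP (TTGCNNAA), NF-kB (GGG, any 3 bases, then TTCC) and PU.1 (GAGGAAGT). No matches overlapped in these windows.
F5: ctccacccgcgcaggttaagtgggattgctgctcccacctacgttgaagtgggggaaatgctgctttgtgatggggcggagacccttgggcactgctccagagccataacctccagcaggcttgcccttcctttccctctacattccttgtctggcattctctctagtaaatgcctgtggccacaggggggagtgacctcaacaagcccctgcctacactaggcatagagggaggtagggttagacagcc
F10: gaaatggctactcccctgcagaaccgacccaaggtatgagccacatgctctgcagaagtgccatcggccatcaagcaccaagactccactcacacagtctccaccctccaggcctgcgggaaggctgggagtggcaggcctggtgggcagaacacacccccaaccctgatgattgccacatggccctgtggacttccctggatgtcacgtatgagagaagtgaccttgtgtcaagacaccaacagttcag
F13a1: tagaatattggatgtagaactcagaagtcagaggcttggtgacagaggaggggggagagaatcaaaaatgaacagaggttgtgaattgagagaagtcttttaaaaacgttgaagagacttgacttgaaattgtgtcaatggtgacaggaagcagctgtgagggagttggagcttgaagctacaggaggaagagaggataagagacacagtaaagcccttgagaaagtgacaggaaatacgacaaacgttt
Saa3: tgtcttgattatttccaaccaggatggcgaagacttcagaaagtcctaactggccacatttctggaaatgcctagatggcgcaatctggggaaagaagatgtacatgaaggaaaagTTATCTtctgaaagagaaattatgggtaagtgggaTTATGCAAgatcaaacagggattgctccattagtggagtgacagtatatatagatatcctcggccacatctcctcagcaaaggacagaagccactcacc
Pf4: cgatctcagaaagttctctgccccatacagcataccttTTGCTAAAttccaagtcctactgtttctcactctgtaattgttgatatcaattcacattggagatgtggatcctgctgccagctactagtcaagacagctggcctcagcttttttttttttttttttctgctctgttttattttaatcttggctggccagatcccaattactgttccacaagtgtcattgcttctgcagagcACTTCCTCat
Distances are counted back from the start site to the 5′ base of a match. Saa3 held a C/EBP match at 99 bases and a GATA match at 134. Pf4 held a PU.1 match at 10 and a C/EBP match at 212 bases, and C3 held a C/EBP match at 45. None of the 4 motifs matched the windows of F5, F10, F7, F13a1 or Cfp, which says only that these letters are not there. Of all 32851 promoter windows of 250 bases, 26.5% held the GATA motif, 9.56% C/EBP, 4.65% NF-kB and 2.44% PU.1.

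Macrophages were barcodes with at least 500 UMIs (unique molecular identifiers, 1 per captured molecule) whose raw UMIs of 6 macrophage markers, among them Adgre1, Csf1r, Cd68 and Mertk, led over the markers of 17 other cell types. They numbered 68 of 222 barcodes (30.6%) in the chimera cauda, with a median of 29121 UMIs, 1033 of 3937 (26.2%) in the KO cauda, with 17156, and 2024 of 18108 (11.2%) in the KO testis, with 5729.5. The 6 gate markers summed to 2596 CPM (chimera), 2119 CPM (KO cauda) and 3905 CPM (KO testis) (UMIs per 1000000 UMIs of the class), and each of them was detected in each library. In the same macrophages B lymphocyte markers summed to 61.1 CPM (chimera), 38.1 CPM (KO cauda) and 9.44 CPM (KO testis), and Leydig cell markers to 0 CPM (chimera), 1.37 CPM (KO cauda) and 520 CPM (KO testis). Fibroblast markers summed to 3.75 CPM (chimera), 2.14 CPM (KO cauda) and 44.3 CPM (KO testis), and sperm or spermatid markers to 199 CPM (chimera), 0.824 CPM (KO cauda) and 0.334 CPM (KO testis). The part of these markers in the values below was not tested. The chimera cauda held 5395856 UMIs, 1866751 of them in macrophages, the KO cauda 41862286 with 18198817, and the KO testis 134795047 with 11966257. A count of 0 in macrophages allows up to 3 UMIs, which is 1.61 CPM (chimera), 0.165 CPM (KO cauda) and 0.251 CPM (KO testis). CPM are not scaled to gene length, since 1 tag at the 3′ end stands for a molecule, and levels are compared within a gene only.

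The 2 cauda libraries shared cell barcodes. Of the 3937 KO cauda barcodes, 3936 had at least 1 UMI in the chimera cauda matrix, while 973 of the 18108 KO testis barcodes (5.37%) did. A total of 125 barcodes reached 500 UMIs in both cauda libraries, and the 109 of them that took a class in both took the same class. Among the 68 chimera macrophages, 64 had a barcode with at least 500 UMIs in the KO cauda, and all 64 were deeper in the chimera. Barcodes deeper in the chimera had a median of 18.1% as many UMIs in the KO cauda (10th to 90th percentile 12.6% to 20.03%), and barcodes deeper in the KO cauda 0.901% as many in the chimera (0.751% to 1.09%). In the KO cauda, 56 of its 1033 macrophages were deeper in the chimera and held 1.51% of the macrophage UMIs. The chimera shared no barcode of at least 500 UMIs with the KO testis, and the KO cauda shared 14, none of them macrophages in both.

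Macrophages of the KO cauda carried F5, F10, F7, C4b, Cfb, Cfp and Saa3 at 22.5 to 1208 times the level of KO testis macrophages, and C3 at 11.8 times, while F13a1 was the reverse and Pf4 was high in both. In KO cauda against KO testis macrophages, 8 of the 10 genes were higher by at least 4-fold with at least 10 CPM in the higher group, a size that 4.29% of 8320 genes reached, and 1 of the 10 was lower by as much, a size that 7.12% reached. The median log2 ratio was 6.07 over the 10 genes and −0.23 over all genes tested. The genes were chosen on this contrast, so nothing is read from these counts. With each shared barcode counted only in the library where it was deeper, the counts were again 8 and 1, and likewise without the shared barcodes of at least 500 UMIs.

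**Figure D1:**
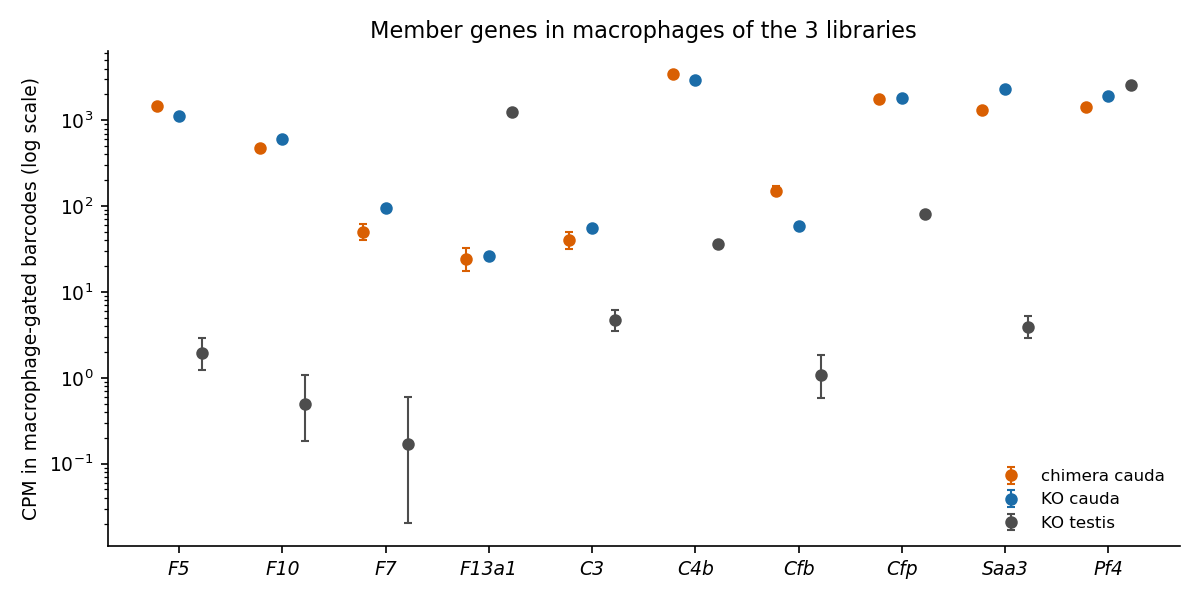
CPM of the 10 genes in macrophages of the chimera cauda, the KO cauda and the KO testis, on a log scale; bars are exact Poisson 95% intervals and cover counting error only. The KO testis points lie below both cauda points for each gene but F13a1, at 1255 CPM, and Pf4, at 2568 CPM.

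Among the clotting factors, F5, the cofactor of factor X, stood at 1449.6 CPM (95% interval 1395 to 1505) in chimera cauda, 1118 CPM (1102 to 1133) in KO cauda and 1.92 CPM (1.22 to 2.88) in KO testis macrophages. The KO cauda level was 581-fold (387 to 918) that of the KO testis. Both cauda libraries were high and the testis was near the floor. F10, the protease that cleaves prothrombin, had 475 CPM in chimera cauda, 606 CPM in KO cauda and 0.501 CPM in KO testis macrophages, the last from 6 UMIs, and the KO cauda level was 1208-fold (555 to 3293) that of the testis. F7, the protease that starts the cascade with tissue factor, had 50.4 CPM (chimera), 95.1 CPM (KO cauda) and 0.167 CPM (KO testis), with 2 UMIs in the testis and a ratio of KO cauda to KO testis of 569 (157 to 4703). The intervals of the cauda libraries did not reach those of the testis for any of these genes.

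Single barcodes carried much of the low testis signal. One testis macrophage of 13596 UMIs held 22 of the 23 F5 UMIs, 6 of 6 F10 UMIs, 1 of 2 F7 UMIs and 25 of 47 Saa3 UMIs of that class. It also held 107 of the 111 UMIs of Prg4 and 34 of the 35 of Alox15, genes of peritoneal cavity macrophages, and 0 of F13a1, Folr2, Mrc1 and Cbr2, genes of tissue-resident macrophages. Its barcode was absent from the KO cauda and had no UMI in the chimera. Without it F5 was left with 1 UMI in the testis (a KO cauda to KO testis ratio of 13359, 2397 to 527676) and F7 with 1 (1137, 204 to 44930.4). F10 then had 0 UMIs, so the KO cauda level was at least 2414-fold higher against the floor of 3 UMIs, and Saa3 had 22 UMIs (1251-fold, 826 to 1996).

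F13a1, the catalytic A subunit of factor XIII, went the other way. It had 24.1 CPM (17.6 to 32.3) in chimera cauda, 26.1 CPM (23.8 to 28.6) in KO cauda and 1255 CPM (1235 to 1275) in KO testis macrophages, 48.1-fold lower (43.9 to 52.8) in KO cauda than in KO testis macrophages. The intervals of the cauda libraries overlapped, and the testis stood far above both. In the KO cauda it was seen in 123 of 1033 macrophages, and the 10% of macrophages with most F13a1, 104 barcodes, held 96.0% of its UMIs, with up to 64 in 1 barcode. In the KO testis it was seen in 1785 of 2024.

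Of the 4 complement genes described, C4b had most UMIs in macrophages of both cauda libraries. In KO testis macrophages Cfp had more, with 969 UMIs against 431 of C4b. C4b had 3442 CPM (3359 to 3528) in chimera cauda, 2962 CPM (2937 to 2988) in KO cauda and 36.0 CPM (32.7 to 39.6) in KO testis macrophages, a ratio of KO cauda to KO testis of 82.2 (74.8 to 90.6). The near-identical copy C4a was not among the genes counted under that symbol. Reads of the pair may have been split or lost in the counting, so the C4b level is uncertain. Cfp, which encodes properdin, the stabiliser of the alternative pathway convertase, had 1746 CPM (chimera), 1823 CPM (KO cauda) and 81.0 CPM (KO testis), 22.5-fold (21.1 to 24.0) higher in the KO cauda than in the testis. Cfb, the protease of that convertase, had 151 CPM (chimera), 59.2 CPM (KO cauda) and 1.09 CPM (KO testis), a ratio of 54.5 (31.7 to 103). C3 itself had 40.2 CPM (chimera), 55.3 CPM (KO cauda) and 4.68 CPM (KO testis), a ratio of 11.8 (9.03 to 15.8), the smallest of the 8. For these 4 genes each cauda interval lay above the testis interval.

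Saa3, an acute-phase apolipoprotein made outside the liver, had 1312 CPM (1260.5 to 1365) in chimera cauda, 2302 CPM (2280 to 2324) in KO cauda and 3.93 CPM (2.89 to 5.22) in KO testis macrophages, 586-fold (441 to 798) higher in the KO cauda than in the testis. Pf4 had 1415 CPM (1362 to 1470.3) in chimera cauda, 1929 CPM (1909 to 1950) in KO cauda and 2568 CPM (2540 to 2597) in KO testis macrophages, and the KO cauda level was 0.751 (0.740 to 0.763) times that of the testis. Of the other platelet markers, Ppbp, Gp9, Gp1bb and Tubb1 had 0 UMIs in the macrophages of both cauda libraries, and Gp9, Gp1bb and Tubb1 had 0 in those of the testis. All 5 platelet markers together gave 0.536 CPM (chimera), 0.604 CPM (KO cauda) and 1.09 CPM (KO testis).

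Chimera and KO cauda macrophages differed by less than 4-fold for each of the 10 genes, as for nearly all genes tested. Since the libraries share barcodes, some reads or cells may be counted in both, which was not tested, so their likeness is not that of independent libraries. None of the 10 differed by 4-fold, a size that 0.65% of 8006 genes reached upward in the chimera and 0.462% downward. Cfb was the only one past 2-fold as scaled, at 2.55 (2.23 to 2.91) times the KO cauda level. F5 was at 1.30 (1.25 to 1.35) and C4b at 1.16 (1.13 to 1.19) times the KO cauda level. The other 7 were at or below 1, from 0.529 (0.425 to 0.652) for F7 and 0.570 (0.547 to 0.594) for Saa3 to 0.924 (0.665 to 1.26) for F13a1 and 0.958 (0.923 to 0.993) for Cfp. The median log2 ratio of all genes with at least 10 CPM in both libraries was 0.21. Relative to it, Cfb stood at 2.204, F5 at 1.12, C4b at 1.004, Saa3 at 0.493 and F7 at 0.458 times the KO cauda level, so Saa3 and F7 were then also past 2-fold. With each shared barcode kept only where it was deeper, Cfb stood at 2.54 and Saa3 at 0.566 times the KO cauda level. With all shared barcodes of at least 500 UMIs left out of both, only 4 chimera macrophages with 8297 UMIs remained, and Saa3 (1 UMI, ratio 0.052, 0.00132 to 0.290) and Cfp (3 UMIs, ratio 0.198, 0.0408 to 0.579) were then lower by over 4-fold, with Pf4 at 0 UMIs and at least 5.35-fold lower. The chimera values thus come almost wholly from shared barcodes.

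Across the larger gated classes, macrophages had the highest level of each of these genes in the cauda but not of each in the testis. Classes with at least 20 barcodes and 100000 UMIs were compared, and the genes had been chosen for their macrophage levels. In the KO cauda all 10 genes were highest in macrophages among 4 classes, as were 24.2% of 10127 genes with at least 10 CPM in a class. The same held in the chimera cauda for all 10 among 2 classes, against 51.4% of 8764 genes. The 663 KO cauda barcodes without a class had C3 at 118 CPM (104.6 to 132), above the 55.3 CPM of macrophages. In the KO testis it held for F13a1, Cfp and Pf4, 3 of the 6 genes that reached 10 CPM in any of 8 classes, against 10.3% of 12326 genes.

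**Figure D2:**
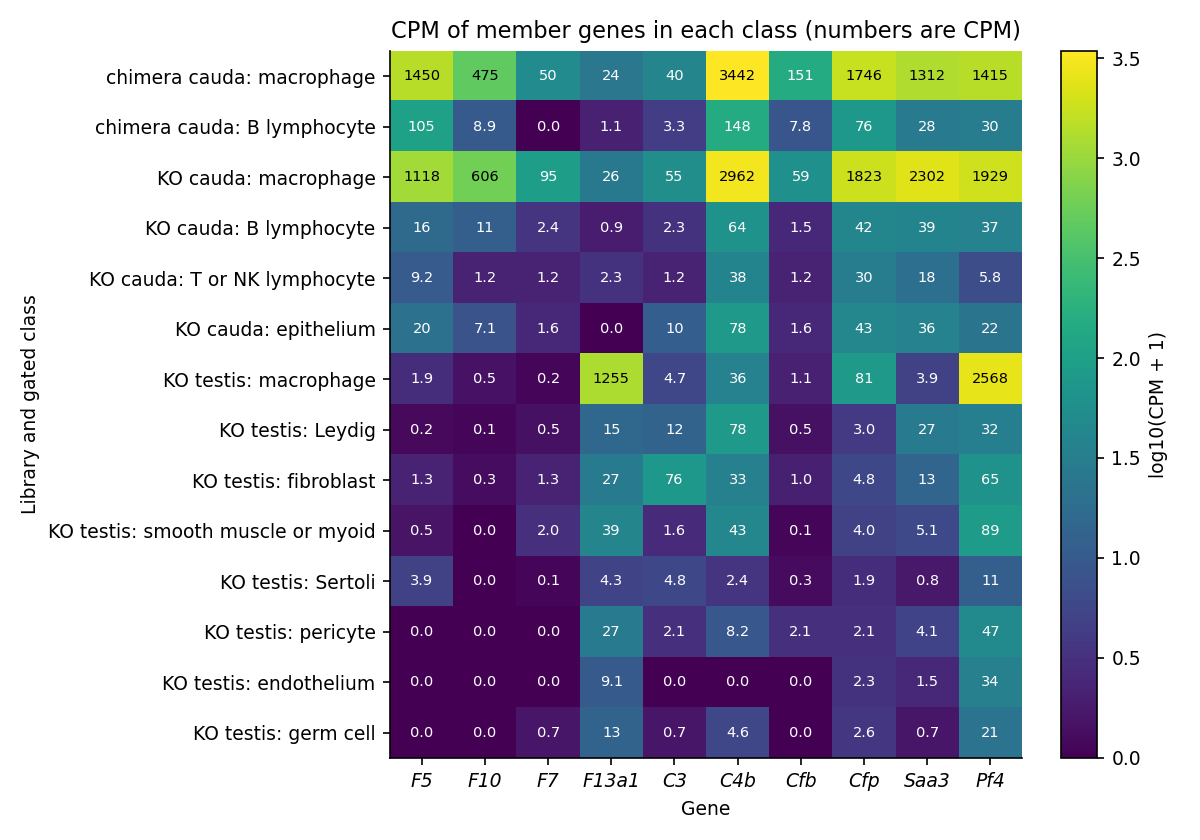
CPM of the 10 genes (columns) in each library and gated class (rows, macrophages first within each library); the number in a cell is the CPM and the colour its log10(CPM + 1). Macrophage rows of the cauda are bright for all genes but F13a1, C3, F7 and Cfb, and in the KO testis C3 is brightest in fibroblasts, at 75.6 CPM.

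In the testis C3 was highest in fibroblasts, at 75.6 CPM (71.1 to 80.5), followed by Leydig cells, the makers of testosterone, at 12.3 CPM (11.5 to 13.1), with macrophages at 4.68 CPM. Testis fibroblasts thus stood above the 55.3 CPM (52.0 to 58.9) of KO cauda macrophages. C4b was highest in Leydig cells, at 78.2 CPM (76.3 to 80.2), then in smooth muscle or peritubular myoid cells at 43.1 CPM (38.9 to 47.5), and the intervals of macrophages, at 36.0 CPM, and fibroblasts, at 33.2 CPM (30.2 to 36.4), overlapped. Saa3 had 27.1 CPM (25.996 to 28.3) in Leydig cells and 13.1 CPM (11.2 to 15.2) in fibroblasts. F5 had 3.94 CPM (2.68 to 5.59) in Sertoli cells, whose interval overlapped that of macrophages. F13a1 outside macrophages was at most 39.4 CPM (35.5 to 43.7), in smooth muscle or myoid cells, and Pf4 at most 89.2 CPM (83.1 to 95.5), in the same class.

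Free RNA in droplets gives UMIs to cells that do not express a gene. In the KO cauda, B lymphocytes stood at 1.39% to 4.13% of the macrophage level over the 10 genes, with a median of 2.22%. In testis Leydig cells, F13a1 stood at 1.17% and Pf4 at 1.26% of the macrophage level. Other classes reached more. In the KO cauda, T or NK lymphocytes stood at 0.191% to 8.85% and epithelium at 0% to 18.6% over the 10 genes. The 50 sperm or spermatid barcodes of the chimera had C4b at 22.5%, Cfp at 24.5%, Saa3 at 25.1% and F5 at 4.54%. Over the 10 genes they ranged from 0% (F7 and Cfb) to 137% (F13a1, from 2 UMIs). Whether free RNA gave these values was not tested. In the chimera, 1 B lymphocyte barcode with 74 macrophage marker UMIs and 151 B lymphocyte marker UMIs held 86 of the 94 F5 UMIs of its class, which had 104.6 CPM with it and 9.38 CPM without it. Outside the larger classes, 12 KO cauda dendritic cell barcodes had Cfp at 462 CPM (373 to 567), and 1 KO cauda fibroblast barcode held 60 C3 UMIs among 8345.

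Shares of macrophages with a UMI were also taken at equal depth. They come from the same counts on which the 10 genes were chosen, so they only describe them. Each macrophage was thinned at random to 2000 UMIs, which left 67 in the chimera cauda, 1021 in the KO cauda and 1960 in the KO testis and left out 1, 12 and 64 shallower ones of these libraries. F5 was then seen in 88.1% (77.8 to 94.7) of chimera cauda, 85.0% (82.7 to 87.1) of KO cauda and 0.051% (0.00129 to 0.284) of KO testis macrophages. C4b was seen in 95.5% (chimera), 96.4% (KO cauda) and 6.68% (KO testis), Cfp in 89.6% (chimera), 95.3% (KO cauda) and 13.9% (KO testis), and Saa3 in 64.2% (chimera), 73.7% (KO cauda) and 0.357% (KO testis). Pf4 was seen in 65.7% (chimera), 71.1% (KO cauda) and 92.2% (KO testis), and F13a1 in 4.48% (chimera), 3.62% (KO cauda) and 79.7% (KO testis), so F13a1 and Pf4 were the 2 of the 10 genes that most testis macrophages carried. F10 was seen in 49.3% (chimera), 61.5% (KO cauda) and 0.051% (KO testis) and F7 in 4.48% (chimera), 17.0% (KO cauda) and 0.051% (KO testis). Cfb was seen in 16.4% (chimera), 11.3% (KO cauda) and 0.255% (KO testis) and C3 in 2.99% (chimera), 10.3% (KO cauda) and 1.02% (KO testis). F7, Cfb and C3 were thus seen in a minority of macrophages in each library at this depth. Without thinning F5 was seen in 95.6% (chimera), 97.9% (KO cauda) and 0.0988% (KO testis), and F13a1 in 11.8% (chimera), 11.9% (KO cauda) and 88.2% (KO testis). In KO cauda B lymphocytes, thinned alike and with a median of 8769.5 UMIs against 17156 in macrophages, C4b was seen in 6.77% and F5 in 1.56%. C4b in testis macrophages, at 6.68%, was below its 9.60% in Leydig cells of the same library, as was Saa3, at 0.357% against 1.68%, and C3, at 1.02% against 1.69%. Over all UMIs, C4b in the testis was at 36.0 CPM in macrophages and 2.41 CPM (1.45 to 3.77) in Sertoli cells, so its low level was not alike in all classes. The part of free RNA in these values was not tested.

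**Figure D3:**
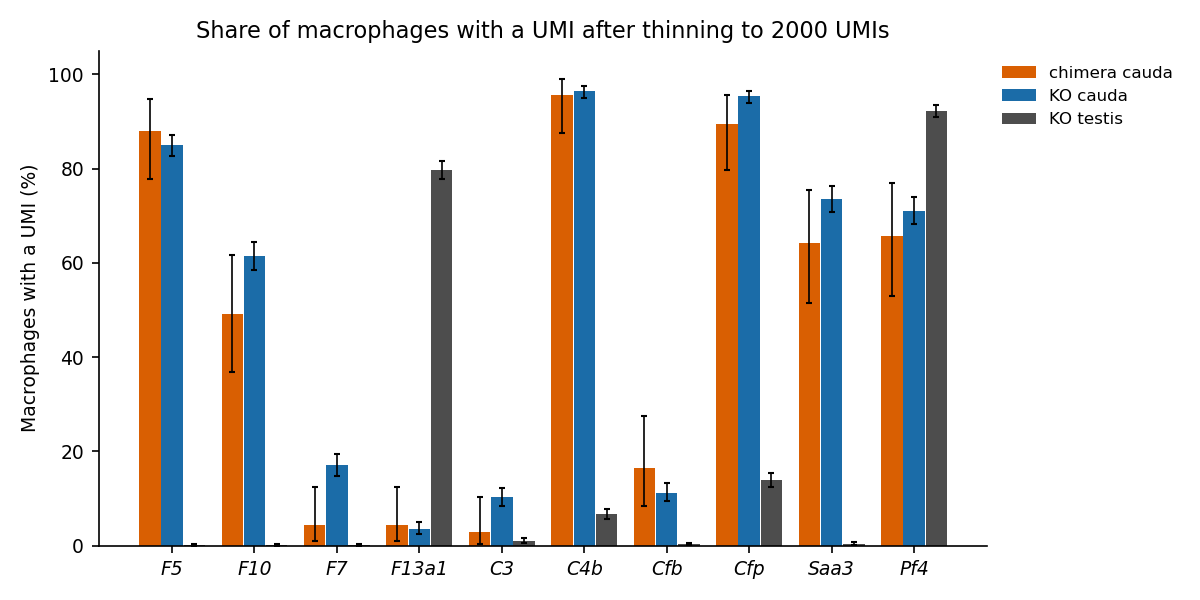
Percent of macrophages with at least 1 UMI of each gene after each barcode was thinned to 2000 UMIs, in the chimera cauda, the KO cauda and the KO testis; bars carry exact binomial 95% intervals. F5, F10, C4b, Cfp and Saa3 bars are tall in both cauda libraries and near 0 or low in the testis, where F13a1 reaches 79.7% and Pf4 92.2%.

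The genes differed in how evenly macrophages of 1 library carried them. In the KO cauda, the 10% of macrophages with most UMIs of a gene held 19.9% of the Cfp UMIs, 20.9% of C4b and 24.2% of F5, against 46.9% of Saa3 and 43.1% of Pf4. In the chimera the corresponding share was 20.9% for Cfp, 22.2% for C4b and 24.8% for F5, against 50.5% for Saa3 and 45.4% for Pf4, so among these 5 genes Saa3 and Pf4 were the more uneven in both cauda libraries. A single KO cauda macrophage held 850 Saa3 UMIs. In the KO testis Pf4 was even, with 25.8% in the top 10%. In thinned KO cauda macrophages F5 and F10 were seen together in 551 barcodes, against 534 from the product of their shares, Saa3 and Pf4 in 551 against 535, F7 and Pf4 in 139 against 124, and C3 and Cfb in 15 against 11.8. F13a1 was seen with F5 in 24 against 31.5 and with F10 in 16 against 22.8.

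Along MHC class II, the antigen presentation genes that set apart subsets of macrophages, F13a1 was higher at the MHC-rich end in the cauda and lower there in the testis. Macrophages of each library were ranked by the share of their UMIs from H2-Aa, H2-Ab1 and H2-Eb1 and split into 3 equal parts, ranges of a score and not cell types. In the KO cauda, F13a1 had 16.6, 19.3 and 41.3 CPM in the low, middle and high parts, 2.49-fold (1.96 to 3.19) higher in the high than in the low part. It was 1 of 10 genes past 2-fold upward, against 0.32% of 7507 genes, and 0 were past 2-fold downward, against 0.546%. Split in 2 parts, the ratio was 1.68 (1.39 to 2.04) and 0 of the 10 genes passed 2-fold, against 0.228% of genes upward and 0.376% downward. Saa3 was lower toward the high part, with 2770.5, 2377 and 1807 CPM in the low, middle and high parts. In the high part the other 8 stood at 0.821 to 1.04 times their level in the low part. In the KO testis F13a1 had 1505, 1435 and 761 CPM in the 3 parts, 0.505 (0.483 to 0.529) times as much in the high as in the low part, and Cfp had 93.0, 88.5 and 58.6 CPM. None of the 4 genes with enough UMIs passed 2-fold there, against 1.56% of 8063 genes upward and 1.22% downward. In the testis 1271 of 2024 macrophages had no UMI of the 3 genes, so its low part and most of its middle part hold none. In the 68 chimera macrophages F13a1 had 40 UMIs in the high part and 1 in the low part (ratio 43.9, 7.43 to 1775). That was past 2-fold upward, like 6.25% of 7011 genes. F13a1 was seen in only 8 of the 68, and 7 barcodes held 97.8% of its 45 UMIs. F7 was 3.65-fold (1.72 to 8.61) lower in the high part, past 2-fold downward like 4.16%. Split in 2 parts, F13a1 was still past 2-fold, with 44 UMIs against 1, and 0 of the 10 genes were lower by 2-fold, against 2.84% of genes.

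**Figure D4:**
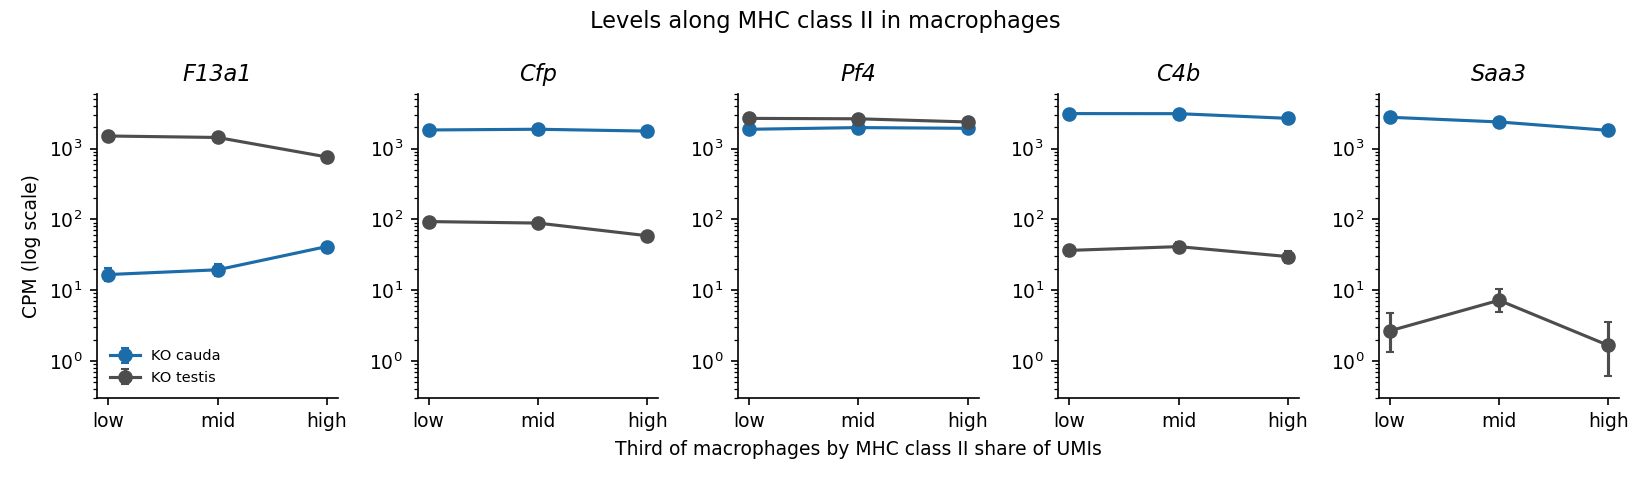
CPM (log scale) of 5 of the genes in the low, middle and high part of KO cauda and KO testis macrophages ranked by their share of MHC class II UMIs; bars are exact Poisson 95% intervals. F13a1 climbs to 41.3 CPM in the KO cauda and drops to 761 CPM in the KO testis. In the high part C4b and Pf4 stand at 0.818 to 1.03 times their level in the low part.

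Gata6, the transcription factor of peritoneal cavity macrophages, split the KO cauda macrophages of at least 2000 UMIs into 830 with a UMI (median 18075.5 UMIs in all) and 191 without (median 12520.0). F13a1 had 17.4 CPM (15.4 to 19.6) with Gata6 and 84.6 CPM (73.3 to 97.2) without it, 4.86-fold (4.03 to 5.86) lower with Gata6. It was the 1 gene of 10 past 2-fold downward, against 1.04% of 7628 genes, and 0 of 10 were past 2-fold upward, against 0.354%. Ccr2, a monocyte receptor, had 8.16 CPM with Gata6 and 170 CPM without it, and H2-Ab1 169 CPM with it and 631 CPM without it. The other 9 genes kept within 0.710 to 1.25 times their level without Gata6, with Saa3 at 2184 CPM with it and 3076 CPM without it, F5 at 1148 CPM with it and 916 CPM without it, and Pf4 at 1981 CPM with it and 1591 CPM without it. In the chimera 61 macrophages had a Gata6 UMI and only 6 lacked one. F13a1 had 14.1 CPM (9.15 to 20.9) with Gata6 and 206 CPM (126 to 318) without it in the chimera, the 1 of 9 genes past 2-fold downward, against 6.69% of 5006 genes. F5, C4b, Cfb, Saa3 and Pf4, 5 of the 9, were past 2-fold upward, against 15.2%, with F5 at 1517 CPM with Gata6 and 216 CPM without it. Those 6 macrophages had Ccr2 at 1039.5 CPM and H2-Ab1 at 3191 CPM. The part of Ccr2-carrying cells in the F13a1 values was not tested.

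In the wider clotting system, no other circulating clotting protein reached 10 CPM in macrophages of either KO library. Of 21 listed coagulation genes, 7 reached 10 CPM in KO cauda or KO testis macrophages. By 4-fold, 3 were higher and 1 lower in the KO cauda, against 4.29% and 7.12% of all genes. All 4 are among the 10 genes chosen on this contrast. The median log2 ratio of 1.28, against −0.23 over all genes, includes them, so nothing is read from it. Vkorc1, which recycles the vitamin K that factors VII and X need, had 145 CPM (chimera), 137 CPM (KO cauda) and 56.7 CPM (KO testis). Lman1 and Mcfd2 form the cargo receptor that carries factor V out of the endoplasmic reticulum, and Lman1 had 115 CPM (chimera), 109.8 CPM (KO cauda) and 79.1 CPM (KO testis) and Mcfd2 45.0 CPM (chimera), 36.8 CPM (KO cauda) and 56.7 CPM (KO testis). F3, the tissue factor that factor VII needs, had 0 CPM (chimera), 0.495 CPM (KO cauda) and 0.919 CPM (KO testis), and F2, which encodes prothrombin, had 1 UMI (chimera), 0 UMIs (KO cauda) and 1 UMI (KO testis). Of 4 thrombin and protease receptors none reached 10 CPM. Among 20 inhibitors and genes of clot lysis, 11 reached 10 CPM, 3 were higher and 4 lower in the KO cauda, against 4.29% and 7.12% of all genes, with a median log2 ratio of 0.87. Serpinb2, an inhibitor of plasminogen activators, had 723 CPM (chimera), 403 CPM (KO cauda) and 0.836 CPM (KO testis), its target Plau 5.89 CPM (chimera), 8.96 CPM (KO cauda) and 82.2 CPM (KO testis) and the receptor Plaur 152 CPM (chimera), 114 CPM (KO cauda) and 6.27 CPM (KO testis). Pros1, which encodes protein S, had 469 CPM (chimera), 271 CPM (KO cauda) and 80.4 CPM (KO testis), while its relative Gas6 had 4.82 CPM (chimera), 2.80 CPM (KO cauda) and 539 CPM (KO testis).

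**Figure D5:**
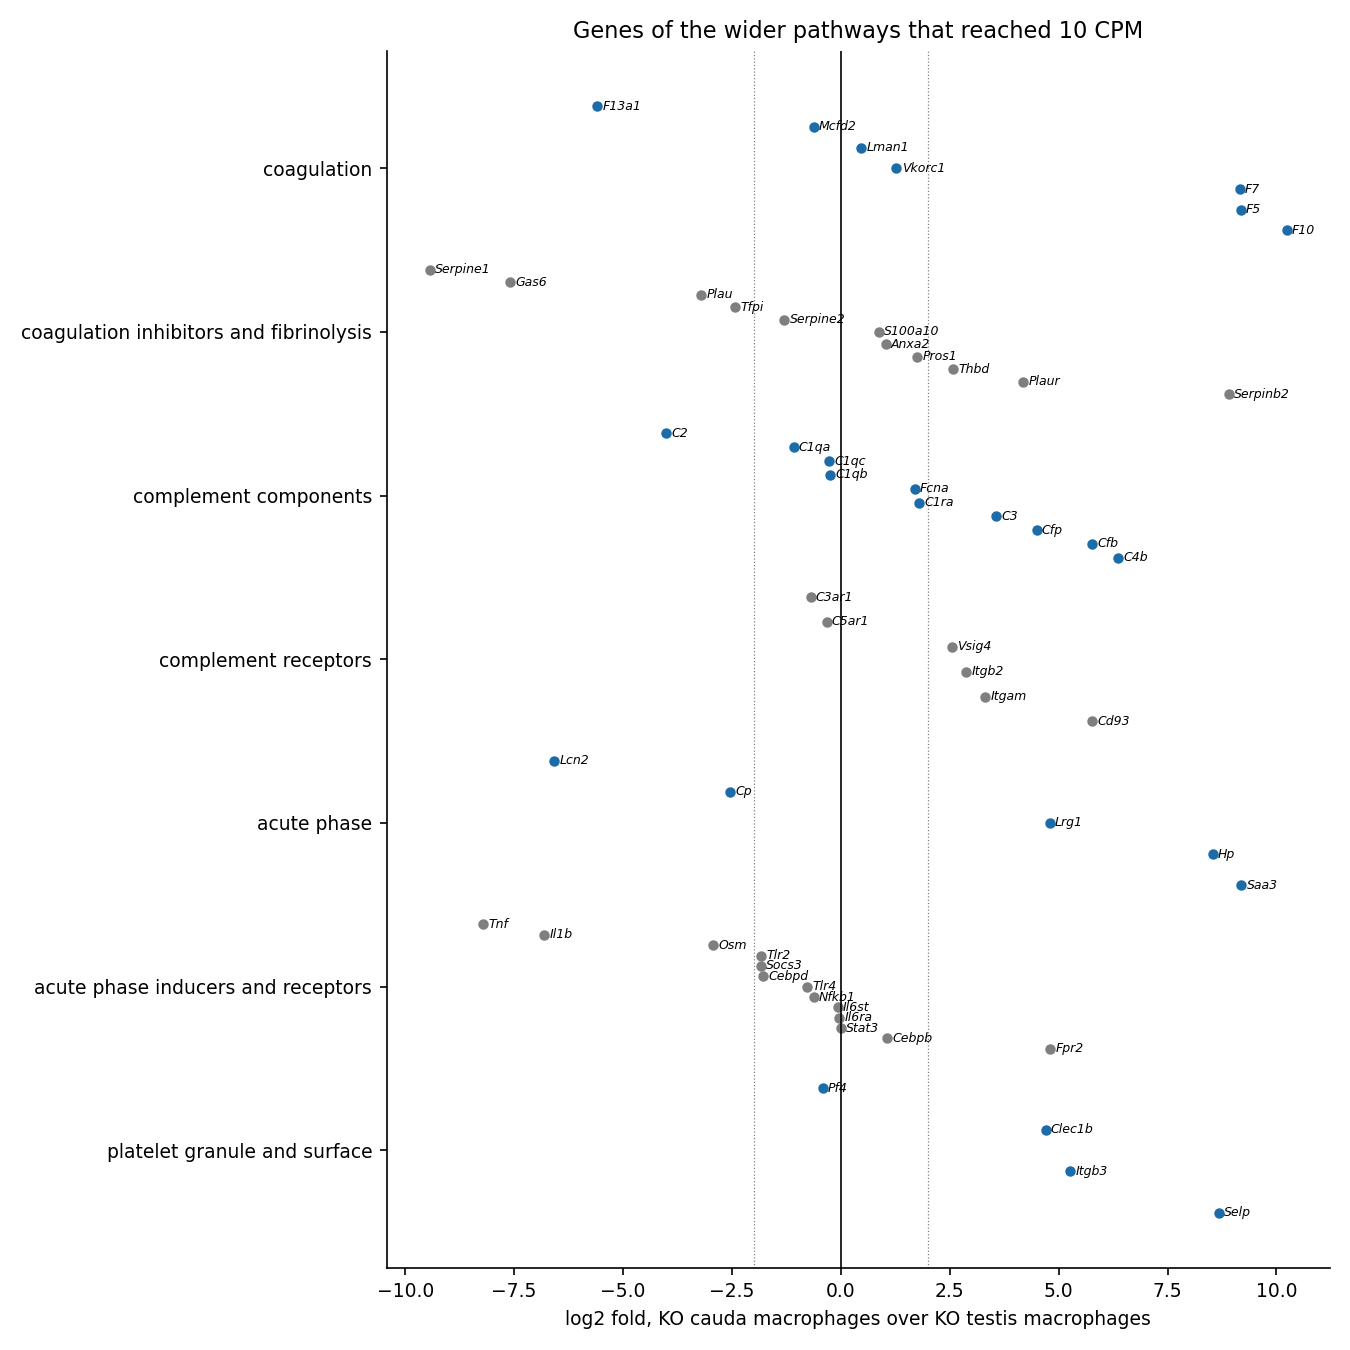
Log2 fold of KO cauda over KO testis macrophages for the genes of 7 lists that reached 10 CPM in either; dotted lines mark 4-fold. Coagulation and acute-phase genes lie at both ends, with F10 farthest right in coagulation at 10.24 and F13a1 farthest left at −5.59.

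Of 25 listed complement components, among them C4a without values, 10 reached 10 CPM. The median log2 ratio was 1.75, and C2 was the 1 lower gene in the KO cauda. The 4 higher ones were C3, C4b, Cfb and Cfp. These 4 are the genes chosen on this contrast, in which 4.29% of all genes were higher and 7.12% lower. C1qa, C1qb and C1qc, the subunits that start the classical pathway, were high in all libraries. C1qa had 2600.2 CPM (chimera), 2864 CPM (KO cauda) and 6058 CPM (KO testis). Fcna, a ficolin that starts the lectin pathway, had 499 CPM (chimera), 557 CPM (KO cauda) and 172 CPM (KO testis). Among regulators, Clu, which encodes an inhibitor of the terminal complex, had 4.29 CPM (chimera), 13.5 CPM (KO cauda) and 148 CPM (KO testis), lower in the KO cauda than in the KO testis, as was Serping1. Of 9 receptors, 6 reached 10 CPM and 4 were higher, against 4.29% of all genes, with a median of 2.72. Itgam and Itgb2 form complement receptor 3. Itgam had 1857 CPM (chimera), 1065 CPM (KO cauda) and 107 CPM (KO testis), and Itgb2 2009 CPM (chimera), 1168 CPM (KO cauda) and 159 CPM (KO testis). Vsig4, a receptor for C3 fragments, had 592 CPM (chimera), 648 CPM (KO cauda) and 110.5 CPM (KO testis), and C3ar1 316 CPM (chimera), 274 CPM (KO cauda) and 442 CPM (KO testis).

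The acute-phase list held genes at both ends. Of 20 genes 5 reached 10 CPM, with a median log2 ratio of 4.79, against −0.23 over all genes. By 4-fold, Saa3, Hp and Lrg1 were higher and Lcn2 and Cp lower in KO cauda than in KO testis macrophages. Over all genes, 4.29% were higher and 7.12% lower by as much. Saa3 is among the 10 genes chosen on this contrast. Hp, which encodes haptoglobin, had 84.1 CPM (chimera), 93.1 CPM (KO cauda) and 0.251 CPM (KO testis), the last from 3 UMIs (a ratio of KO cauda to KO testis of 372, 127 to 1803). Lrg1 had 434 CPM (chimera), 310.3 CPM (KO cauda) and 11.2 CPM (KO testis), whereas Lcn2, which encodes the iron carrier lipocalin 2, had 0.536 CPM (chimera), 6.43 CPM (KO cauda) and 615 CPM (KO testis). Cytokine genes that induce the acute phase were at low levels in the cauda. Il6 was low in the testis as well, with 1.61 CPM (chimera), 1.65 CPM (KO cauda) and 0.334 CPM (KO testis). Tnf had 2.68 CPM (chimera), 0.824 CPM (KO cauda) and 244 CPM (KO testis) and Il1b 0.536 CPM (chimera), 1.37 CPM (KO cauda) and 154 CPM (KO testis). Of 13 inducers and receptors with enough UMIs, 1 was higher and 3 lower in the KO cauda, against 4.29% and 7.12% of all genes, with a median of −0.78. Of 13 platelet genes 4 reached 10 CPM, Pf4 among them, with a median of 4.99. Selp, Itgb3 and Clec1b were higher by 4-fold in the KO cauda, against 4.29% of all genes. Selp, which encodes the adhesion receptor P-selectin, had 706 CPM (chimera), 516 CPM (KO cauda) and 1.25 CPM (KO testis).

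The macrophages of the 2 organs also differed in genes that mark where macrophages reside. All 9 genes listed for peritoneal cavity macrophages were higher by 4-fold in the KO cauda than in the KO testis, with a median log2 ratio of 7.49, a size that 4.29% of all genes reached. Prg4 had 6849 CPM (chimera), 6370 CPM (KO cauda) and 9.28 CPM (KO testis), and Gata6 had 231 CPM (chimera), 147 CPM (KO cauda) and 0.919 CPM (KO testis). Of 7 genes listed for tissue-resident macrophages 6 were lower, against 7.12% of all genes, with a median of −7.20, among them Mrc1, at 32.1 CPM (chimera), 9.29 CPM (KO cauda) and 1662 CPM (KO testis), and Folr2, at 3.21 CPM (chimera), 3.63 CPM (KO cauda) and 1051 CPM (KO testis), while Ednrb was higher. No MHC class II gene of the 4 with enough UMIs passed 4-fold. In the chimera against the KO cauda, 1 gene over all these lists, Lyve1, was higher by 4-fold and none was lower. Organ, animal and way of sampling go together in this design and cannot be told apart.

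The genes most alike across the 14 pairs of library and class were picked by Pearson's r of log2(CPM + 1) among 7980 genes, a description over pairs that share libraries. F5 was most like Alox15 (0.98), Serpinb2 (0.98) and Cd5l (0.98), and F10 most like Cd5l (0.99), Mcemp1 (0.98) and Naip1 (0.98). F7 was most like Prtn3 (0.96), Hp (0.95) and Klra2 (0.94), and F13a1 most like Clec4a2 (0.97), Ccl3 (0.97) and Fcrls (0.97). For C4b and Saa3 each was the other's nearest gene (0.94), Cfb was nearest to Vmn2r26 (0.97) and Cfp to Ifitm6 (0.99). Pf4 was most like C1qa (0.99), C3ar1 (0.99) and C1qb (0.98). C3, highest in fibroblasts of the testis and in macrophages of the cauda, had the weakest match, with Cxcl14 at 0.83.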

How the data were processed

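Single-cell 3′ libraries (Chromium v3.1, per the labels' protocols) of 3 samples, grouped by title, were analysed from the raw UMI counts that the authors deposited, whole numbers per gene and barcode with no normalization. Cell Ranger 6, Seurat 4.2.1 and the build GRCm38.p6 are listed in the submitters' processing notes. Per the file headers, Cell Ranger 4 wrote the chimera matrix and 6.1.2 both KO matrices, so version and chimera cannot be told apart. The chimera matrix keeps 214280 nonzero barcodes under 500 UMIs and the KO matrices none. A series-wide barcode list without counts was not used. Gene positions are from GENCODE M21.

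The 10 genes, the wider lists and the gates were chosen with earlier results of these data known. A barcode of at least 500 UMIs took the class with the largest summed UMIs of its markers, given at least 3 UMIs, at least 2 markers detected and at least 2 times the next class. Of such barcodes 42 (chimera), 663 (KO cauda) and 2352 (KO testis) took no class. No doublet caller was run, and the runner-up rule and an alternative without the deepest 10% of macrophages stand in for it. UMIs were summed per library and class and scaled to CPM. Levels carry exact Poisson, shares Clopper-Pearson and ratios conditional binomial 95% intervals, which cover counting error only. With 1 library per group no test was run. A size rule called ratios of at least 4-fold with at least 10 CPM and 10 UMIs in the higher group (2-fold within a library). Thinning used seed 7. Some genes of the lists and gates are not reported here. The ratio step was tested on simulated counts. From the wider lists, genes were named with at least 50 CPM in macrophages of any library or among the 4 of their list with most UMIs. F2, F3, Il6, Serping1, C2 and the single barcodes were named after their values were seen. Python 3.11.15, numpy 2.4.6, scipy 1.17.1, pandas 2.3.3 and matplotlib 3.10.9 were used.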

Additional observations from a re-analysis of the deposited data

Results flagged for a closer look

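The 10 genes also gave a signal in data that the comparisons leave out, the 214280 chimera cauda barcodes with fewer than 500 UMIs, which held 2453757 UMIs and for which the KO matrices have no counterpart. Their levels there exceeded the limit that a count of 0 allows. In the clotting genes these barcodes had F5 at 441 CPM (415 to 468), F10 at 239 CPM (220.3 to 259), F7 at 35.9 CPM and F13a1 at 11.004 CPM. Among the complement genes they had C3 at 35.0 CPM, C4b at 2763 CPM (2698 to 2830), Cfb at 42.8 CPM and Cfp at 1198 CPM. Saa3 stood at 826 CPM and Pf4 at 616 CPM. These levels were 28.3% (Cfb) to 87.2% (C3) of those in chimera macrophages, and the macrophage gate markers, at 1181 CPM in sum, were at 45.5%. Of these barcodes 3811 are also in the KO cauda matrix. With them set apart, the remaining 210469 had F5 at 435 CPM and C4b at 3000.3 CPM.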

How the results depend on the processing

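The 8 higher and 1 lower of the 10 genes in KO cauda against KO testis macrophages were counted under every alternative run for that comparison. No value past the size rule turned direction, but smaller ones did. With MHC class II split in 2 parts, Pf4 in the KO cauda stood at 0.929 (0.910 to 0.949) in place of 1.03. In the KO testis Saa3 was then at 2.43 (33 against 14 UMIs) in place of 0.623, and C4b at 1.01 in place of 0.818. The higher of these 2 testis parts held all 23 F5 UMIs of the macrophages. The 1 barcode with 22 of these also held 25 of the 47 Saa3 UMIs, and its part in the Saa3 ratio was not tested. C3 in the chimera was at 1.19 in place of 0.886. Chimera over KO cauda, C4b was at 0.814 without the shared barcodes in place of 1.16, and F13a1 at 1.06 without the deepest 10% of macrophages in place of 0.924. Ratios of KO cauda to KO testis were tallied together with those along MHC class II within the testis. Of these, 116 of 137 stayed within their 95% interval and 21 moved. Ratios of chimera to KO cauda moved in 34 of 130 cases. Thinning to 1000 or 5000 UMIs moved 44 of 60 shares. The cause was not tested where none is named. After free RNA, the lowest class level, was subtracted, 1153 genes were higher and 1041 lower in the KO cauda than in the KO testis, and 107 higher and 1802 lower in the chimera than in the KO cauda; by construction a gene lowest in macrophages is set to 0. At a 2-fold size, 740 of 8320 genes were higher and 1283 lower in the KO cauda than in the KO testis. In the chimera against the KO cauda, 379 of 8006 genes were higher (1 of the 10 genes, Cfb) and 145 lower. Without the shared barcodes of at least 500 UMIs (chosen after seeing the data), the 4 chimera macrophages left gave 20 higher and 122 lower genes. Of the lower ones, 3 were among the 10. The share over all genes was not computed for this setting, so nothing is read from these 3. No paired analysis was possible because each group is 1 library. No replicate could be left out. The 8297 UMIs of those 4 barcodes, the 2 F7 UMIs of the testis and the 45 F13a1 UMIs of the chimera set the depth limits.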
